A study of Mus musculus with 48 samples.

Results

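The H3K27ac response of heart macrophages and monocytes to myocardial infarction (MI) on postnatal day 10 (P10) was measured 3 days after surgery. The libraries were chosen by title: age P10, day 3, and either MI or sham, which gave 6 MI and 6 sham libraries, 12 of the 48 samples of the series. H3K27ac, the acetylation of histone H3 at lysine 27, lies on enhancers and promoters in use. It was profiled by CoBATCH, in which an antibody-guided transposase cuts and tags the marked DNA. All mice were C57BL/6. In the MI arm the left anterior descending coronary artery was tied, the sham arm had the operation without the tie, and the treatment label reads myocardial infarction for every sample, so that the arm was read from the titles. Infarct (IZ), border (BZ) and remote (RZ) zones were dissected from the hearts of both arms, the same zone of several hearts was pooled, and living cells positive for CD45 and F4/80 were sorted. Each arm held 2 libraries per zone, numbered 2 and 3. The 3 zones of an arm that share a number were treated as 1 pool of hearts, so that each arm rests on 2 pools. The sort takes resident macrophages, recruited monocytes and their progeny together, and the reads used here carry no cell barcode. A lower or higher signal at a locus therefore cannot be told apart from fewer or more cells of the type that uses it.

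Resident heart macrophages are settled in the tissue before and around birth and clear debris, handle iron and present antigen. After an infarct, classical monocytes enter from blood and spleen, sense products of dead cells through formyl peptide, Toll-like and C-type lectin receptors, and turn into macrophages that take up dead cells and build scar. Enhancers of these programmes gain or lose acetylation as the mix of cells and their state change.

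The MI libraries held 137589 to 755715 read pairs (median 415275) and the sham libraries 368724 to 853744 (median 555794), and 38.6% to 54.3% of the pairs lay in H3K27ac regions. The shallowest library was RZ MI number 3. In the 6 libraries numbered 2, 1 sequencing lane was written with every line repeated. After the repeats were dropped, it gave 23.4% to 31.3% of their pairs. Reads of that lane without a mate made up 12.0% to 16.6% of the pairs counted in these 6 libraries, and 50.2% to 52.4% of its pairs with both mates had the same ends as a pair of another lane. These were kept, and without the lane 500 gene windows, defined below, passed the test in place of 428. MI and sham libraries of a number came from the same flow cells. The labelled cell type was checked at promoters. The summed promoter signal of 12 genes that define macrophages and leukocytes was 229 to 356 CPM (read pairs scaled to a common total, here all pairs of a library) in MI and 257 to 349 in sham. Cardiomyocyte markers summed to 2.65 to 12.6 in MI and 0 to 13.6 in sham, and fibroblast markers to 2.81 to 7.76 and 2.71 to 7.88, with Col3a1, Dcn and Lum at 0 in all 12 libraries. Endothelial, T and NK cell, B cell, mast cell and erythroid sums ranged over 4.21 to 23.3, 2.11 to 20.4, 8.44 to 27.9, 3.72 to 15.53 and 0 to 7.27 in MI. The same 5 sums ranged over 2.71 to 24.2, 10.5 to 18.7, 13.6 to 42.6, 5.25 to 15.2 and 4.56 to 10.8 in sham. None of these ranges separated the arms, and counts at such promoters were low, so that their part in the results below was not tested.

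The broadest comparison asked which gene neighbourhoods gained or lost H3K27ac after MI. A gene window holds the gene with 50 kb upstream and 30 kb downstream, and its value is the number of pairs in H3K27ac regions of the window, given as CPM of the pairs summed over all tested windows. Of 10159 windows tested with limma voom (mean of the zone differences, replicate number as a block, Benjamini-Hochberg adjusted p under 0.05), 428 windows differed between MI and sham, 4.21% of those tested. H3K27ac rose at 332 windows (3.27%) and fell at 96 (0.945%). The median difference over all windows tested was -0.01 on the log2 scale. The differences at the windows that rose were 0.11 to 1.68 (median 0.53), and those at the windows that fell were -0.32 to -1.49 (median -0.80). Windows of neighbouring genes overlap and share pairs, and the 428 windows formed 162 stretches that rose and 55 that fell. Without the replicate block 103 windows passed (94 higher, 9 lower), with the zones of each pool summed 140 (133 higher, 7 lower), and with limma-trend 0, where 872 had an unadjusted p under 0.05. Few of the falls thus passed in more than the first fit, and Adam19 and Nubp1 were the named ones that passed with the block, without it and with zones summed. Leaving out 1 library gave 40 without MI RZ number 2, 69 without sham RZ number 2 and 1089 without MI IZ number 2, and leaving out both RZ libraries numbered 2 left 1 window past the threshold.

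**Figure D1:**
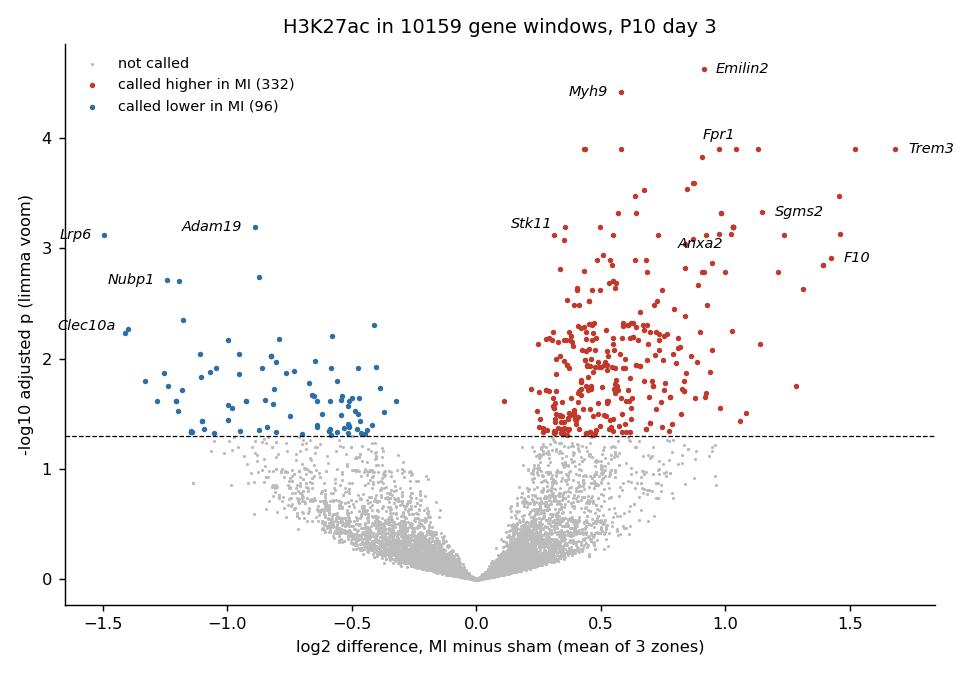
Each point is 1 of the 10159 gene windows; the x axis is the log2 difference of MI minus sham over the 3 zones and the y axis is -log10 of the adjusted p of limma, with the 332 windows that rose and the 96 that fell in colour. The dashed line is the threshold, Trem3 and F10 lie far to the right, Lrp6 and Clec10a far to the left, and Emilin2 and Myh9 at the top.

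The window of Fpr1, a receptor for formyl peptides of bacteria and mitochondria, held 101 to 248 CPM in the 6 MI libraries (median 143) and 57.8 to 87.6 in the 6 sham libraries (median 80.7). The arms did not overlap, and the difference was 0.97 (SE 0.16, adjusted p = 0.000126). Has1, a hyaluronan synthase gene next to Fpr1 whose window shares most of these pairs, gave 127 to 274 against 77.3 to 106, again without overlap (0.84, SE 0.15, adjusted p = 0.000292). Trem3, an activating receptor of myeloid cells, showed the largest rise among the named windows, 39.2 to 132 in MI (median 73.3) against 5.45 to 48.2 in sham (median 22.7), with 1.68 (SE 0.28, adjusted p = 0.000126). The lowest MI value of Trem3 lay below the highest sham value. Its neighbours in the same receptor cluster rose too: Treml4 by 1.52 (SE 0.25), Trem1, an amplifier of inflammatory signals, by 1.46 (SE 0.26), and Trem2, a lipid sensor of repair macrophages, by 0.90 (SE 0.21). The windows of Trem3, Treml4 and Trem1 hold the same called region, so that they are not separate observations. Trem2 lies in the same stretch of overlapping windows, but the called region in its window was another one. Clec4e (Mincle), a lectin receptor for products of dead cells and for microbial glycolipids, held 39.2 to 191 CPM in MI (median 123) and 32.7 to 90.3 in sham (median 66.2). Clec4e rose by 0.92 (SE 0.18, adjusted p = 0.000763) and its neighbour Clec4d by 0.67 (SE 0.15), which was 0.33 without MI RZ number 2. The window left without both RZ libraries numbered 2 was a fall, so no rise named here passed in that fit. Fpr1, Has1, Trem3 and Treml4 passed the test in each of the 12 fits that left out 1 library, and Clec4e in 10.

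**Figure D2:**
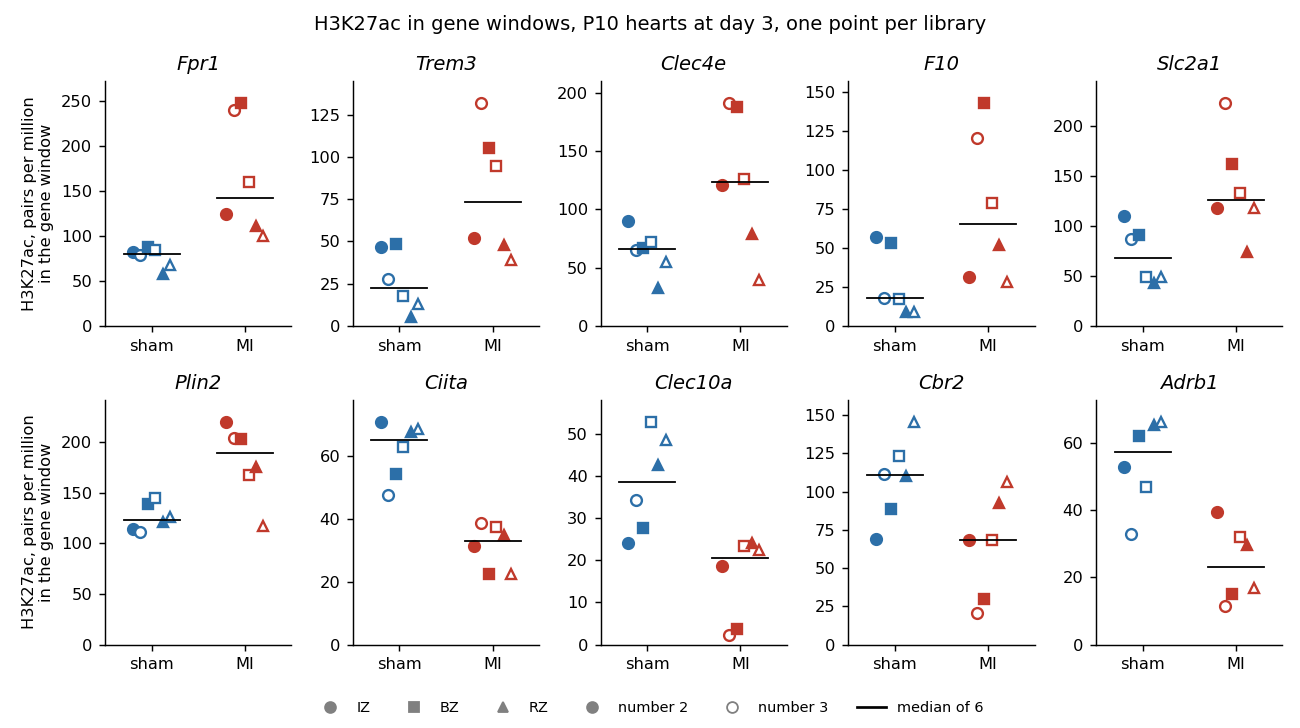
CPM (y axis, linear, from 0) at 10 gene windows in the 6 MI and 6 sham libraries; circles are IZ, squares BZ and triangles RZ, filled symbols are libraries numbered 2 and open symbols number 3, and each bar is the median of 6. Fpr1 and Ciita separated the arms, whereas Trem3, Clec4e, F10, Slc2a1, Plin2, Clec10a, Cbr2 and Adrb1 overlapped in at least 1 library.

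The classical monocyte list moved in 1 direction. Of its 18 genes, 12 had a tested window, 7 rose and 0 fell, a share of 58.3% beside 4.21% over all windows tested, and the fitted difference was above 0 in 12 of 12 beside 47.9% of all windows. The median of the list was 0.64 and that of all windows -0.01. The list was chosen with earlier results of these data known, so its direction is not independent evidence. F10, the gene of coagulation factor X, held 28.0 to 143 CPM in MI (median 65.5) and 8.72 to 57.2 in sham (median 17.8), and it rose by 1.42 (SE 0.29, adjusted p = 0.00123). Gda (guanine deaminase) rose by 0.89, Plac8 by 0.75 and Itgam, the CD11b integrin chain, by 0.61. Clec4e and Clec4d, given above, also belong to the list. Their windows lie in 1 stretch of overlapping called windows, so that these 2 calls are not separate observations. Ccr2, the chemokine receptor by which monocytes leave the marrow, gave 0.05 (SE 0.11) and Cd14 gave 0.17, and neither passed the test. Ly6c2, Vcan, Chil3, Fn1, Sirpb1c and Thbs1 had too few pairs in regions to be tested. Of the 7 that rose, 3 passed without the block and 5 with zones summed. On day 7 the median of the list was 0.03, and without both RZ libraries numbered 2 its day 3 median was 0.43.

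The resident macrophage list held few calls. Of 23 windows tested from the list of 24 genes, 0 rose, 2 fell (8.70% called beside 4.21% of all windows) and 5 had a fitted difference above 0 (21.7% beside 47.9%), and the median was -0.28. The medians were -0.19 in the IZ, -0.35 in the BZ and -0.01 in the RZ, and -0.02 on day 7. The 2 that fell were Cbr2, a carbonyl reductase of resident macrophages, and Mgl2, a lectin for galactose-type sugars. Cbr2 held 20.4 to 106 CPM in MI (median 68.3) and 69.2 to 146 in sham (median 111), and fell by 0.82 (SE 0.20, adjusted p = 0.00949). Mgl2 held 3.76 to 67.1 against 54.2 to 108 and fell by 0.95 (SE 0.23, adjusted p = 0.00911). Neither passed without the block (adjusted p = 0.134 and 0.0918) or with zones summed (0.0745 and 0.132). The difference was -0.46 at Cbr2 without MI IZ number 3 and -1.47 at Mgl2 without MI BZ number 3. The neighbouring lectin gene Clec10a, named by its small adjusted p, fell by 1.40 (SE 0.32, adjusted p = 0.00543), from a sham median of 38.4 to an MI median of 20.5. Clec10a rests on pairs in regions: counted over all pairs of the window its difference was -0.58 and did not pass. It was -0.87 without MI IZ number 3. C1qa gave -0.45 (adjusted p = 0.14), Mrc1 -0.40 (adjusted p = 0.0763), Maf -0.76 (adjusted p = 0.058), Gas6 -0.98 (adjusted p = 0.0673) and Lyve1 -0.12, none past the threshold. At promoters the list had a median of -0.66, with 1 of 17 above 0 beside 46.4% of all promoters tested.

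The same lists were summed at promoters. The sum over classical monocyte promoters was 135 to 301 CPM of all pairs in MI (median 212) and 114 to 201 in sham (median 160), with 4 of the 6 MI libraries above the highest sham library. The sum over resident macrophage promoters was 120 to 443 in MI (median 259) and 184 to 541 in sham (median 397). MI IZ number 3, at 141, and MI BZ number 2, at 120, lay below the lowest sham library. Granulocytes share some genes with monocytes, and how many of them passed the sort for F4/80 was not measured. Their promoter sum was 77.9 to 318 in MI (median 164) and 84.1 to 108 in sham (median 98.7), with 4 MI libraries above all sham libraries and 1 below. Over the 12 granulocyte windows tested of 20, 0 rose and 0 fell beside 4.21% called of all windows, 11 had a difference above 0 (91.7% beside 47.9%) and the median was 0.38. The gelatinase gene Mmp9 gave 0.55 (adjusted p = 0.0625), Padi4, an arginine deiminase of neutrophils, 0.71 (adjusted p = 0.0769) and the receptor gene Csf3r 0.46 (adjusted p = 0.0773). S100a8, S100a9, Cd177, Mmp8, Camp, Cxcr2, Retnlg and Ly6g had no tested window. The part of these cell types in the windows that rose or fell was not tested.

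**Figure D3:**
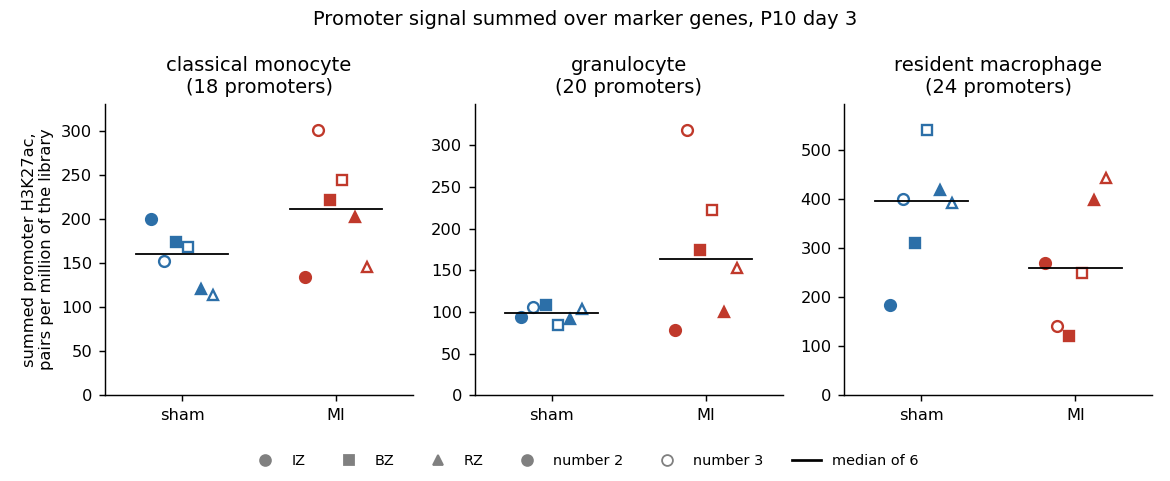
Summed promoter signal of the classical monocyte, granulocyte and resident macrophage lists in 3 panels (y axis, CPM of all pairs of a library) in the 6 MI and 6 sham libraries, 1 point per library. The granulocyte sums reached 318 in MI and 108 in sham, and the resident macrophage medians were 259 in MI and 397 in sham.

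Regulators of inflammatory signalling rose at a few windows. Of 27 windows of NF-kB and Toll-like receptor genes, 4 rose and 0 fell, 14.8% beside 4.21% of all windows (median 0.22). They were Ikbke, a kinase of the innate response, Nfkbia, the NF-kB inhibitor that NF-kB itself induces, Tnfrsf1a, a receptor for TNF, and Bcl3, a nuclear partner of NF-kB. Ikbke held 61.5 to 120 CPM in MI (median 84.7) and 43.0 to 60.2 in sham (median 48.7). The arms of Ikbke did not overlap, and it rose by 0.79 (SE 0.17, adjusted p = 0.00358). Of the 4 tested regions in its window 2 lay above 0, with differences from -0.60 to 1.48. The 1 region that passed also lies in the called window of the neighbouring gene Rassf5. Nfkbia rose by 0.62 (SE 0.14, adjusted p = 0.00476), Bcl3 by 0.37 and Tnfrsf1a by 0.35 (0.18 without MI RZ number 2). Without the block only Nfkbia of the 4 passed, and with zones summed Nfkbia and Ikbke. Brakes on inflammation rose at 3 of 21 windows, 14.3% (median 0.22): Socs3, an inhibitor of STAT3 signalling, by 0.40 (SE 0.09), Dusp1, a phosphatase that turns off p38 and JNK, by 0.39 (SE 0.09), and Pdcd1lg2, the checkpoint ligand PD-L2, by 0.48 (SE 0.12). Socs3 and Dusp1 passed without the block, and Dusp1 with zones summed.

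Cytokine and chemokine genes themselves held 1 call. Of 21 windows 0 rose and 1 fell, 4.76% and so near the 4.21% of all windows, and the median was 0.09. The window that fell was Ccl12, a monocyte chemokine, by 0.92 (SE 0.26, adjusted p = 0.0242), with 11.4 to 61.5 in MI and 24.1 to 104 in sham. It did not pass without the block (adjusted p = 0.192) or with zones summed (0.0517), and was -0.49 without MI IZ number 3, -0.59 without sham IZ number 3 and -1.39 without MI IZ number 2. Tnf gave 0.02 and Il1b 0.29, neither past the threshold. The AP-1 and immediate early list had 0 called of 24 (median 0.09). Klf4 gave -0.77 (adjusted p = 0.106). Myc, a growth regulator, gave -0.44 (adjusted p = 0.246), with arms that did not overlap, 27.3 to 43.6 against 46.9 to 62.6.

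Among 31 myeloid transcription factor windows 3 rose and 0 fell, 9.68% beside 4.21% of all windows (median 0.09). Bhlhe40, a repressor that shapes cytokine production, held 10.4 to 109 CPM in MI (median 51.0) and 6.54 to 34.6 in sham (median 16.4), and rose by 1.28 (SE 0.34, adjusted p = 0.0177). Its window passed in 6 of the 12 fits without 1 library, and the difference was 0.69 without MI IZ number 3. Cebpb, a driver of inflammatory and repair programmes, rose by 0.33 (SE 0.08) and Etv6, an ETS family repressor, by 0.25 (SE 0.06). Without the block 0 of the 3 passed, and with zones summed only Bhlhe40. Outside the list, Batf3, which dendritic cells of the cross-presenting kind need, fell by 0.41 (SE 0.09, adjusted p = 0.00493), with 198 to 291 in MI and 285 to 356 in sham. It did not pass without the block (adjusted p = 0.0587) or with zones summed (0.0599), and was -0.27 without MI RZ number 2.

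Genes of cell shape and movement were read from 2 lists. Of 42 actomyosin windows, 4 rose and 0 fell, 9.52% beside 4.21% of all windows, and 36 had a difference above 0, 85.7% beside 47.9% (median 0.16). Myh9, the heavy chain of non-muscle myosin IIA, rose by 0.58 (SE 0.09, adjusted p = 3.83e-05), Coro1c, an actin regulator, by 0.43, Arhgdib by 0.46, and the bundling protein gene Lcp1 by 0.32. Lcp1 held 351 to 417 in MI and 252 to 350 in sham, without overlap. Myh9 and Coro1c passed without the block and with zones summed, Arhgdib and Lcp1 in neither. Adhesion genes had 6 of 23 windows that rose (26.1%) and 0 that fell, with a median of -0.01: Emilin2, Itgb2, Itgam, Selplg, Cd9 and Cd44. Emilin2, a matrix glycoprotein gene, had the smallest adjusted p of all windows (0.91, SE 0.13, adjusted p = 2.4e-05), with 123 to 402 CPM in MI and 76.3 to 266 in sham. The integrin chain gene Itgb2 rose by 0.45, Selplg, the gene of the selectin ligand PSGL-1, by 0.45, the tetraspanin gene Cd9 by 0.62 and the hyaluronan receptor gene Cd44 by 0.34 (0.19 without MI RZ number 2). Of the 6, 4 passed without the block and 5 with zones summed. The windows of Selplg and Coro1c share pairs, so that they are not separate observations.

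**Figure D4:**
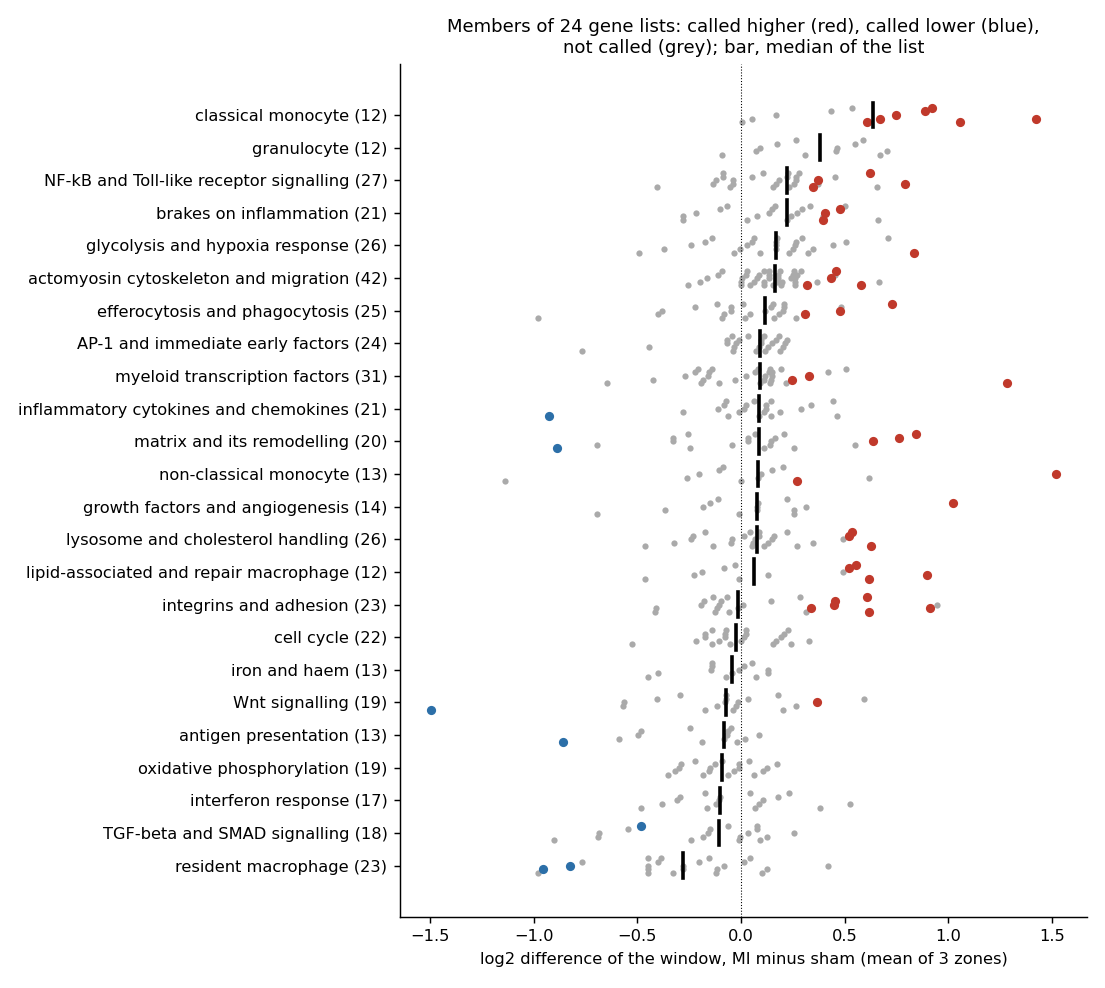
Log2 differences of MI minus sham (x axis) at the tested windows of 24 gene lists, 1 point per window, with those that passed the test in colour and a bar at each list's median. The classical monocyte list had a median of 0.64 with 7 windows called, the granulocyte list 0.38 with 0 and the resident macrophage list -0.28 with 2. The NF-kB list and the list of brakes on inflammation had medians of 0.22. The other medians lay between -0.11 and 0.17, and that of all windows was -0.01.

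Matrix enzymes split. Of 20 windows, 3 rose and 1 fell, 20.0% beside 4.21% of all windows (median 0.09), and the 4 also passed without the block and with zones summed. Adam8, a metalloprotease of activated leukocytes, rose by 0.63 (SE 0.11, adjusted p = 0.000337) with 157 to 327 in MI (median 254) and 114 to 178 in sham (median 153). Plaur, the urokinase receptor gene, rose by 0.76 (SE 0.18) and the third was Has1, given above. Adam19, another metalloprotease, fell by 0.89 (SE 0.17, adjusted p = 0.000641), with 26.3 to 157 in MI and 117 to 223 in sham, and was -0.56 without MI IZ number 3. In the growth factor list 1 of 14 windows rose, 7.14%: Anxa2, which assembles plasminogen activation at the cell surface, by 1.02 (SE 0.20, adjusted p = 0.000741).

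Uptake and lipid genes moved in a few members. In the lipid-associated and repair list 4 of 12 windows rose (33.3% beside 4.21% of all windows), 0 fell and the median was 0.06: Trem2, Cd9, Plin2 and Lgals3. Plin2, which coats lipid droplets, held 117 to 220 CPM in MI (median 189) and 111 to 145 in sham (median 123), and rose by 0.56 (SE 0.12, adjusted p = 0.00231). Lgals3, the galectin-3 gene, rose by 0.52 (SE 0.15), which was 0.24 without MI RZ number 2 and 0.29 without sham RZ number 2. Without the block Trem2 alone of the 4 passed, and with zones summed 3 did. Arg1, the arginase of repair macrophages, gave -0.19 (SE 0.27) and did not pass. Of 26 lysosome and cholesterol windows 3 rose and 0 fell, 11.54% (median 0.08): the protease gene Ctsd by 0.53 (0.32 without MI RZ number 2), the cholesterol exporter gene Abcg1 by 0.63 and Soat1, which esterifies cholesterol, by 0.52 (0.34 without MI IZ number 2). Of 25 phagocytosis windows 3 rose and 0 fell, 12.0% (median 0.11): the Src family kinase gene Fgr by 0.73, the inhibitory receptor gene Cd300lf by 0.48 and the kinase gene Syk by 0.31 (0.16 without MI RZ number 2). Of these 6 windows, Ctsd and Fgr passed without the block and with zones summed. Of 13 non-classical monocyte windows 2 rose, 15.4% (median 0.08), Treml4 and the inhibitory receptor gene Cd300a, the latter by 0.27 and in neither of those settings.

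Metabolic lists held 1 call. Slc2a1, the glucose transporter GLUT1, held 73.6 to 223 CPM in MI (median 126) and 42.5 to 110 in sham (median 67.8), rose by 0.84 (SE 0.17, adjusted p = 0.0015) and passed in each of the 12 fits that left out 1 library. It was the 1 window called of 26 in the glycolysis and hypoxia list, 3.85% and so near the 4.21% of all windows, with a median of 0.17. Pfkp, a glycolytic kinase gene, gave 0.71 (adjusted p = 0.063) and Hif1a 0.51 (adjusted p = 0.26). In oxidative phosphorylation 0 of 19 windows were called and 5 lay above 0 (median -0.09), with Cox4i1 at -0.30 and Cox5a at -0.29. The iron and haem list had 0 called of 13 (median -0.04), with Cd163 at -0.45 and Slc11a2 at -0.40, and the cell cycle list had 0 called of 22 (median -0.03), with Cdk6 at 0.24 and Ccnd3 at 0.23.

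The antigen presentation list held 1 call of 13, 7.69% beside 4.21% of all windows. Ciita, which switches on the MHC class II genes, held 22.4 to 38.6 CPM in MI (median 33.0) and 47.4 to 70.7 in sham (median 65.1). The arms did not overlap, and Ciita fell by 0.86 (SE 0.22, adjusted p = 0.0121). Without the block its adjusted p was 0.078, and with zones summed 0.0497. The window of Nubp1, an iron-sulfur assembly gene beside Ciita, overlaps its window and fell by 1.24 (SE 0.26). In the list 2 windows lay above 0 (median -0.08). H2-Ab1 gave -0.59 (adjusted p = 0.28) and Cd74 -0.19. B cells also use Ciita, and the B cell promoter sums had medians of 15.2 in MI and 26.7 in sham, with 2 MI libraries below all sham libraries and 0 above. The medians of single B cell markers went both ways, with Cd79b at 0 in MI and 8.31 in sham and Ms4a1 at 3.93 and 3.28. Of the 5 B cell windows tested of 10, 0 were called and 2 lay above 0 (median -0.04). How many B cells passed the sort for F4/80 was not measured. Their part in this result was not tested. The interferon list had 0 called of 17 (median -0.10), with Irf7 at 0.52 and Isg15 at -0.31.

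The TGF-beta and Wnt lists held few calls. Of 18 TGF-beta windows 0 rose and 1 fell, 5.56% beside 4.21% of all windows (median -0.11): Eng, the co-receptor endoglin, by 0.48 (SE 0.15, adjusted p = 0.0436), with 72.7 to 87.2 in MI and 90.0 to 128 in sham and no overlap. Eng passed in 1 of the 12 fits without 1 library. Of 19 Wnt windows 1 rose and 1 fell, 10.5% (median -0.07): Rnf43, a brake on Wnt receptors, by 0.37, and the Wnt co-receptor gene Lrp6, which fell by 1.49 (SE 0.29, adjusted p = 0.00076). MI BZ number 2 held 0 pairs at Lrp6, and the difference was -0.81 without that library, -0.89 without MI IZ number 3 and -2.28 without MI BZ number 3. It was -0.25 in the RZ alone, -0.79 with zones summed (adjusted p = 0.0517) and -0.47 over all pairs of the window (adjusted p = 0.126). Eng and Rnf43 passed neither without the block nor with zones summed. Outside the lists, Adrb1, the beta-1 adrenergic receptor, fell by 1.05 (SE 0.27, adjusted p = 0.0121), with 11.4 to 39.5 in MI and 32.7 to 66.2 in sham. Ston2, an endocytic adaptor, fell by 0.65 (SE 0.16) with 60.1 to 81.8 against 85.1 to 147 and no overlap, and Agpat3, an enzyme of phospholipid synthesis, fell by 0.73 (SE 0.19) with 31.8 to 66.9 against 74.3 to 96.5 and no overlap. Adrb1, Ston2 and Agpat3 did not pass without the block or with zones summed. Over all 24 lists, 470 genes of 566 had a tested window, of which 43 rose and 7 fell, 10.6% beside 4.21% of all windows; the lists were chosen with earlier results of these data known, so this share is not independent evidence.

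Further windows with the smallest adjusted p had roles outside the lists. Sgms2, a sphingomyelin synthase at the plasma membrane, held 83.9 to 233 CPM in MI (median 148) and 24 to 139 in sham (median 64.5), and rose by 1.15 (SE 0.21, adjusted p = 0.000475). Rab20, a GTPase of phagosomes, rose by 0.98 (SE 0.18), and Rin3, an activator of Rab5, by 0.58 (SE 0.09). The Fkbp5 locus, read through the overlapping window of Armc12, rose by 1.04 (SE 0.17, adjusted p = 0.000126). Fkbp5 encodes a co-chaperone of steroid receptors that glucocorticoids induce. S100a4, a calcium-binding protein gene of motile cells, rose by 1.03 (SE 0.19) with 33.6 to 152 in MI and 21.8 to 97.8 in sham, and its window holds the same pairs as that of S100a6. Fam49b, a Rac1 inhibitor gene, rose by 0.43 (SE 0.07) with 481 to 679 against 303 to 479 and no overlap, and Stk11, the kinase gene LKB1, rose by 0.36 (SE 0.07) with 598 to 765 against 435 to 545 and no overlap. Over all windows tested the arms did not overlap at 57 higher windows (0.561%) and 44 lower ones (0.433%), of which 41 and 20 passed the test.

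Single regions asked where within these neighbourhoods the mark changed. Of 12490 regions tested with limma voom, 117 passed (0.937%): 101 rose (0.809%) and 16 fell (0.128%). The rises were 0.33 to 2.41 (median 1.13) and the falls -0.65 to -2.34 (median -1.54). Of 6713 regions at a promoter 37 rose and 4 fell (0.611%), of 3452 inside a gene 42 rose and 10 fell (1.51%), and of 2325 between genes 22 rose and 2 fell (1.03%). Called regions were longer (median 10000 bp) than tested regions (median 4000 bp) and deeper, with a median of 20.4 pairs per library beside 9.67. Of the 117, 78 lay inside a called window and 39 outside, and 289 called windows held no called region. Without the block 34 regions passed, and without MI RZ number 2 or without sham RZ number 2 the count was 0, with 1135 and 1133 regions at an unadjusted p under 0.05 in place of 1571.

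The 300 bp with most pairs are shown for 4 regions that rose and 2 that fell (mouse GRCm38, plus strand). These stretches were picked by their pairs over all 42 libraries. MI and sham were compared over whole regions, and not within these stretches. Introns are those of GENCODE M21, and the Hpgd element also lies in an exon of the gene model Gm45540. Capitals mark the letters of AP-1 (TGANTCA), RUNX (TGTGGT), C/EBP (TTGCNNAA), PU.1 (GAGGAAGT), E-box (CACGTG), GC box (GGGCGG), NF-kB (GGGA and TTCC with 2 bases between) and IRF (GAAA and GAAA with 2 bases between) motifs found on either strand.
Emilin2 intron, chr17:71257106-71257405: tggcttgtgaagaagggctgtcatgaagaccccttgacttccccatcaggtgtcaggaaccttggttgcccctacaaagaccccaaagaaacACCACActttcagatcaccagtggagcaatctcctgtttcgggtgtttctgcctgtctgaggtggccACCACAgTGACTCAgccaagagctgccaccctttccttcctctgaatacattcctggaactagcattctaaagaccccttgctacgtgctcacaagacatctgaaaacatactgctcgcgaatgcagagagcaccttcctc
behind 6430531B16Rik, chr7:139971548-139971847: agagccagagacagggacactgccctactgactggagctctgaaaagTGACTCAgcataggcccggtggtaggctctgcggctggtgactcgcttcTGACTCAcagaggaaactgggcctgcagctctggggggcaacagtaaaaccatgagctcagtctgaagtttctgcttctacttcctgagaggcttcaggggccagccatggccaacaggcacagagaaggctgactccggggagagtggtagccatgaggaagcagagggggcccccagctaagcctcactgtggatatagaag
Trem1 promoter, chr17:48232053-48232352: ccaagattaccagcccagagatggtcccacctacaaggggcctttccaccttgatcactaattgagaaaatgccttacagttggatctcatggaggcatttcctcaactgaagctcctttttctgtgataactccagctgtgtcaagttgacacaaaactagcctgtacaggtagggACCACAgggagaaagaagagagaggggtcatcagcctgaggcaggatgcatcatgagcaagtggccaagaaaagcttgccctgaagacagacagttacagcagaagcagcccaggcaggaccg
Sgms2 intron, chr3:131476756-131477055: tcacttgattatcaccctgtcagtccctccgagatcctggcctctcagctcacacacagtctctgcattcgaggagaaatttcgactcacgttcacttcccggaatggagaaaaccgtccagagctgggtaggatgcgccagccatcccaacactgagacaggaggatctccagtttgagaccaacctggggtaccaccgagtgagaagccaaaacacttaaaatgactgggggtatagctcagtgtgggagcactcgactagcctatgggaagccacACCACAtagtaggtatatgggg
Hpgd intron, chr8:56313540-56313839: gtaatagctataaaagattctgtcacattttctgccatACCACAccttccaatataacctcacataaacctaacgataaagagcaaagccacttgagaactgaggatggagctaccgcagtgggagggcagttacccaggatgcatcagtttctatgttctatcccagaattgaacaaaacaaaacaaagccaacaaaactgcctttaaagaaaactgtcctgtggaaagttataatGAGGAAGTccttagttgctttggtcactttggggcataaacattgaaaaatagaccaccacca
Ephx1 intron, chr1:181015710-181016009: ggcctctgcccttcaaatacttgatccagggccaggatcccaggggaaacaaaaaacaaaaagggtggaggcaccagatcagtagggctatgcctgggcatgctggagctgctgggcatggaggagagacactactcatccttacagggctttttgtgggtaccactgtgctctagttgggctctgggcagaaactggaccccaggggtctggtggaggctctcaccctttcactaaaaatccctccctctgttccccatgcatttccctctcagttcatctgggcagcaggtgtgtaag

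The Emilin2 element lies in an intron of Emilin2, within a region at chr17:71250501-71269000. In CPM of the pairs summed over tested regions, this region held 76.8 to 512 in MI (median 324) and 55.0 to 249 in sham (median 139), and it rose by 1.31 (SE 0.22, adjusted p = 0.000349). The difference was 0.82 without MI RZ number 2 (adjusted p = 0.345) and 0.66 without both RZ libraries numbered 2 (adjusted p = 0.631). The Sgms2 region, in an intron at chr3:131476001-131484500, held 76.8 to 179 in MI (median 136) and 6.11 to 125 in sham (median 43.9) and rose by 1.82 (adjusted p = 0.000641). The Trem1 region at its promoter, chr17:48229001-48235500, held 15.4 to 159 in MI (median 76.7) and 0 to 38.9 in sham (median 20.4) and rose by 2.26 (SE 0.43, adjusted p = 0.00149). All 3 overlapped between the arms. The region that covers 6430531B16Rik and Adam8, chr7:139969501-139995000, rose by 0.68. Promoter regions of Fkbp5 (1.124) and Fgr (1.18), the Myh9 region (0.53) and a region between genes nearest Susd1 at chr4:59450501-59456500 (1.86) also rose.

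Among the leading regions that fell, those in Ephx1, Sema6d and Hpgd separated the arms, and that of Adam19 did not. Over all regions tested, 39 higher (0.312%) and 43 lower ones (0.344%) had no overlap of the arms, of which 11 and 7 passed the test. A region in Ephx1, an epoxide hydrolase, chr1:181015501-181018000, held 0 to 15.4 in MI (median 3.10) and 17.5 to 45.8 in sham (median 34.8), and fell by 2.34 (SE 0.50, adjusted p = 0.00596). A region in an intron of Hpgd, which breaks down prostaglandins, chr8:56310001-56315500, held 0 to 40.5 in MI (median 20.7) and 43.2 to 95.4 in sham (median 73.4), and fell by 1.58 (adjusted p = 0.0224). A region in Sema6d, chr2:124609001-124612500, fell by 1.91 without overlap, and the Adam19 region fell by 0.89. Without the block Ephx1 kept its call (adjusted p = 0.0269), whereas Sema6d (0.055), Hpgd (0.0693) and Adam19 (0.0815) did not pass. With zones summed Sema6d did not pass (0.0958). These low values rest on few pairs.

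Further regions were chosen after their values were seen. A region at Fpr2, chr17:17881001-17892000, rose by 1.44 (adjusted p = 0.00621), and a region inside the matrix protease gene Mmp14 rose by 2.06 (adjusted p = 0.00596) although the Mmp14 window did not pass. The promoter region of Cxcr2, a chemokine receptor of granulocytes and some monocytes, chr1:74153501-74156500, held 11.6 to 153 in MI (median 36.3) and 0 to 65.4 in sham (median 7.97), and rose by 2.30 (SE 0.51, adjusted p = 0.00932). The granulocyte promoter sums given above overlapped between the arms, and their part in this result was not tested. A region at Aff1 rose by 2.15 without overlap, whereas a region at Lpin1, a phosphatidate phosphatase gene, fell by 1.23 without overlap.

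The motif letters gave these shares in the 300 bp with most pairs. AP-1 letters lay in 17.8% of the 101 regions that rose and in 8.97% of all 12490 tested, C/EBP letters in 18.8% and 9.34%, RUNX letters in 28.7% and 17.6%, and NF-kB letters in 7.92% and 1.59%. PU.1 letters (4.95% and 6.44%), IRF letters (2.97% and 3.00%) and E-box letters (6.93% and 8.18%) differed less, and GC box letters lay in 19.8% and 42.8%. Regions that rose held a smaller share of promoters than all regions tested. Within promoters alone AP-1 letters lay in 10.8% of those that rose and 4.39% of all. C/EBP letters lay there in 5.41% and 6.29%, and NF-kB letters in 0 of 37 and 1.33%. Inside genes C/EBP letters lay in 21.4% and 12.9%, and NF-kB letters in 6 of 42 and 1.91%. Between genes C/EBP letters lay in 36.4% and 12.9%, and NF-kB letters in 2 of 22 and 1.85%. RUNX letters lay in 29.7% and 11.7% within promoters, and in 18.2% and 24.1% between genes. GC box letters lay in 40.5% and 66.3% within promoters. Of the 16 regions that fell, 3 held PU.1 letters and 0 held AP-1 letters. A match is a description of the sequence, and no test was made of these shares.

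Promoters alone, counted as all pairs within 1 kb of a gene start, gave 0 calls of 8200 tested with limma voom. At an unadjusted p under 0.05 there were 515 (6.28%), and the smallest adjusted p was 0.0956, at Evi5l (-1.99, SE 0.45). The promoter of Tgm2, a transglutaminase that crosslinks proteins, held 102 to 257 CPM of the pairs summed over tested promoters in MI (median 124) and 0 to 90.7 in sham (median 35.4), without overlap (1.75, SE 0.44, adjusted p = 0.196). This scale is not that of the marker sums, which are CPM of all pairs. That of Ptges, the inducible prostaglandin E synthase, held 102 to 225 against 29.1 to 81.7, also without overlap (1.63, adjusted p = 0.27). Over all promoters tested, 9 higher (0.11%) and 11 lower ones (0.134%) had no overlap of the arms. At the Ccl12 promoter the difference was -1.52 (adjusted p = 0.316). These counts do not show that promoters were unchanged: the median SE of the log2 difference was 0.41 over the tested promoters and 0.19 over the tested windows.

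The zones asked whether the response was local. With 2 libraries against 2, 0 windows passed in the IZ (limma voom, 787 at an unadjusted p under 0.05, 7.75%), 15 in the BZ (0.148%, with 1040 unadjusted, 10.2%) and 0 in the RZ (866 unadjusted, 8.52%). The difference between the IZ response and the RZ response passed at 0 windows (497 unadjusted, 4.89%), and its median SE was 0.46. Differences of -1.25 at Trem3 (adjusted p = 0.98) and -1.12 at S100a4 (adjusted p = 0.952) did not pass either, so that these libraries do not show whether the zones differed. At the 332 windows that rose over the zones together, the medians were 0.51 in the IZ, 0.57 in the BZ and 0.49 in the RZ. At the 96 that fell they were -0.73, -0.77 and -0.49. These windows were chosen on the mean of the 3 zones, so that the medians describe them and test nothing. Of the 15 BZ windows 8 were higher and 7 lower. Csf3r, the G-CSF receptor gene, passed in the BZ at 1.19 (SE 0.26, adjusted p = 0.0325), as did Mgl2 at -2.0 (SE 0.46, adjusted p = 0.0421), and the other higher windows included Gsr, which recycles glutathione, at 1.25. The window of the neighbouring gene Mrps15 holds the same pairs as that of Csf3r, so that their calls are not separate observations. Of the 7 lower BZ windows, 5 held 0 pairs in MI BZ number 2, among them Lrp6, and Mgl2 held 1 pair there.

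The libraries did not carry these windows evenly. Over the 332 windows that rose, MI IZ number 3 was the highest MI library at 197 and MI BZ number 2 at 98, whereas MI RZ number 3 was the lowest at 183 and MI RZ number 2 at 95. Sham RZ number 2 was the lowest sham library at 182 of these windows. Over the 96 that fell, MI IZ number 3 was the lowest MI library at 42 and MI BZ number 2 at 38. These 2 MI libraries also had the lowest resident macrophage promoter sums. MI IZ number 3 had the highest granulocyte and classical monocyte promoter sums as well, 318 and 301 CPM of all pairs. In MI BZ number 2 these 2 sums were 175 and 221, below the 222 and 245 of MI BZ number 3. The part of these cell types in the uneven libraries was not tested.

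Libraries taken on day 7 after the same P10 surgery, and so from older mice, gave the later state, and none of them entered the day 3 contrast. In these hearts 0 windows passed for MI against sham (limma voom, 385 at an unadjusted p under 0.05, 3.79%). At the 332 windows that rose on day 3, the day 7 median was 0.06, 219 had the same sign and 12 had an unadjusted p under 0.05. At the 96 that fell, the day 7 median was -0.06 and 63 had the same sign. Over all windows tested 49.7% lay above 0 on day 7. Trem3 gave 0.34, Fpr1 -0.13, Slc2a1 0.06 and Ciita -0.34 on day 7. The difference between the day 3 and day 7 responses passed at 0 windows (871 unadjusted, 8.57%), with a smallest adjusted p of 0.0799. The 332 and 96 windows were chosen on their day 3 differences, which by itself makes smaller day 7 differences likely. Their day 7 medians thus describe them and test nothing.

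**Figure D5:**
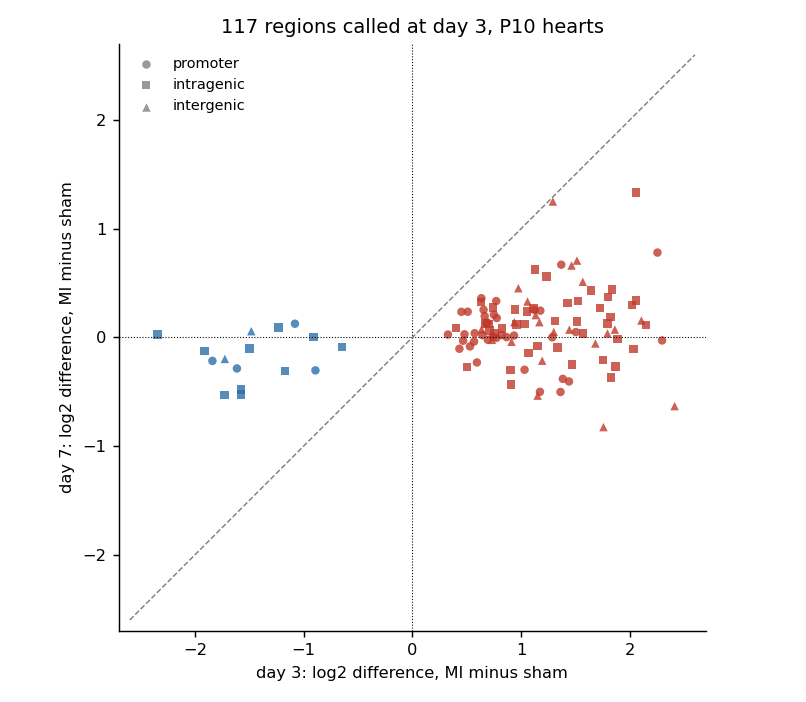
Log2 difference of MI minus sham at the called regions on day 3 (x axis) and on day 7 (y axis), 1 point per region, from separate libraries, with symbols for promoter, intragenic and intergenic regions and a dashed line where both days are equal. The 101 regions that rose on day 3 had a day 7 median of 0.08 and the 16 that fell one of -0.16. All were chosen on their day 3 difference.

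Regions, also chosen on day 3, gave the same picture on day 7. The 101 that rose on day 3 had a day 7 median of 0.08, with 69 of the same sign and 5 at an unadjusted p under 0.05. The 16 that fell had -0.16, with 11 of the same sign and 0 at an unadjusted p under 0.05.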

How the data were processed

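Per the methods, the authors trimmed with Cutadapt, mapped to mm10 with Bowtie2, filtered on mapping quality in Samtools and dropped duplicates in Picard. The submitters' processing notes also name MACS2 2.2.7.1 and deepTools. The deposited files list the aligned reads of each library with a mapping quality score (21 to 44), which was not used as a measurement. Reads that map equally well to near-identical gene copies would be missing from them.

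Mates were joined by read name, repeated lines were dropped, and a pair, or a read without its mate, counted as 1 at its midpoint, with GENCODE M21 on GRCm38. This gave 18007584 pairs in 42 libraries. Regions were 500 bp steps of at least 4 times the mean covered step, merged within 1000 bp (27160 regions). Windows were tested where libraries averaged 10 or more pairs, and regions and promoters where they averaged 3 or more.

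Counts were scaled by TMM and fitted with limma 3.58.1 (voom, two-sided moderated test) in R 4.3.3 with statmod 1.5.0. All 42 libraries entered, with 24 group means, replicate number as a term within each age and day, and 14 pools as a random block (correlation -0.0046 for windows). P-values were adjusted by Benjamini-Hochberg over every feature tested in a contrast. The pool correlation was so small that the fit weighed the 3 zones of a pool nearly as separate samples. Each arm nevertheless rests on 2 pools, and the spread was estimated from all 42 libraries. The labels do not say whether the pools came from separate litters, so p-values measure the spread between these libraries and not between litters. The fit was tested on simulated data. Python 3.11.15, numpy 2.4.6, pandas 2.3.3, matplotlib 3.10.9 and samtools 1.23.1 were used for counting, tables, plots and sequence.

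The libraries, lists and tests were chosen with earlier results of these data known. Named were the 15 leading non-overlapping windows in each direction by adjusted p with 1 sign in the 3 zones, every list member past the threshold or, for a list with none, up to 2 with the largest statistic, up to 8 regions that rose and 4 that fell, and up to 5 promoters per direction. Other list members given as values were chosen after the values were seen. The separate values of 1 list member are not reported here.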

Additional observations from a re-analysis of the deposited data

Results flagged for a closer look

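In each arm of 6 libraries, a value was singled out when the gap between the highest or lowest library and its neighbour, divided by the range, was above Dixon's 95% critical value for 6 samples. Of 238 such groups over the named windows, regions and promoters, 13 values met it, and chance gives about 1 in 20 groups.

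The MI library IZ number 3 was the lowest of its arm at the Myc window (27.3 CPM, next 37.6) and at the Soat1 window (77.2, next 121), and the highest at the Selplg window (475, next 321). MI BZ number 2 was the highest at Abcg1 (132, next 99.9) and at Etv6 (928, next 737), and held 0 at Pkdcc, a secreted kinase gene, where the next library held 12.5. MI RZ number 3, the shallowest library, was the lowest at the Armc12 window (67.1, next 124) and at the Fkbp5 region (184, next 324), which share a locus. MI IZ number 2 was the highest at the Syngr1 promoter (228, next 102). In sham, IZ number 3 was the lowest at Pkdcc (18, next 30.1) and the highest at Socs3 (386, next 301). Sham RZ number 2 was the highest at the Sema6d region (76.4, next 43.2) and at the Evi5l promoter (320, next 133).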

How the results depend on the processing

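The count of windows, 428, became 272 when libraries were scaled to all deposited pairs, 140 with the zones of a pool summed (133 higher, 7 lower), 156 for gene bodies with 5 kb on each side, and 0 with limma-trend (872 at an unadjusted p under 0.05). The count of regions, 117, became 8 with no minimum of pairs (5 of them among the 117), 503 in a fit of only the 12 libraries (all 117 among them), and 0 with limma-trend (461 unadjusted). With regions drawn anew at 8 times the mean 20 passed. With median-ratio size factors 136 regions passed, 103 higher and 33 lower, in place of 101 and 16. The 0 promoters became 1 with median-ratio size factors and 30 with only the 12 libraries. The cause of these changes was not tested.

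The replicate numbers share only a number and flow cells: deviations of MI and sham libraries with the same number correlated at 0.12 in the BZ, -0.20 in the IZ and 0.04 in the RZ. Without the replicate block 103 windows (94 higher, 9 lower), 34 regions (33 higher, 1 lower) and 6 BZ windows passed.

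Leaving out 1 library gave 40 to 1089 windows, 0 to 436 regions and 0 to 3 promoters. For windows these were 40 without MI RZ 2, 69 without sham RZ 2, 173 without MI IZ 3, 186 without sham IZ 3, 235 without MI BZ 2, 274 without sham BZ 3 and 1089 without MI IZ 2. For regions they were 0 without either RZ library numbered 2, 8 without MI IZ 3, 30 without sham BZ 3, 33 without sham IZ 3, 42 without MI BZ 2 and 436 without MI IZ 2. The lone library of such a zone was assumed to vary like the other groups. Of alternatives chosen after seeing the data, leaving out both RZ libraries numbered 2 gave 1 window and 2 regions, and leaving out the repeated lane gave 1 IZ window, 33 BZ windows and 1 window for day 3 minus day 7. No value of a single named feature changed sign in any of these. The planned edgeR and DESeq2 fits were not run.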

Other observations

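Called windows of neighbouring genes formed 10 stretches of 5 or more, a limit chosen after seeing the data. Windows of a stretch overlap in a chain, so that neighbours in it are not separate observations. The stretch with most windows, 9, ran from 119860841 to 124375722 on chromosome 8, and windows at its ends need not share regions. On chromosome 8 a stretch of 8 windows at 3578421 to 3744175 (GRCm38) held Retn and Mcemp1, both known from granulocytes and monocytes, which share the same pairs: 79.0 to 300 CPM in MI (median 150) and 45.8 to 154 in sham (median 76.5), a rise of 0.71 (SE 0.19, limma adjusted p = 0.0177). On chromosome 7 the interferon-induced membrane genes Ifitm1, Ifitm2 and Ifitm3 rose by 0.41, 0.42 and 0.47, whereas the interferon list held 0 calls. A further stretch on chromosome 7 held Siglece, an inhibitory lectin of myeloid cells, with 158 to 293 in MI and 129 to 157 in sham, without overlap (0.55, SE 0.11, adjusted p = 0.002). The single stretch of this size that fell held Cbr2.

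Other called windows with known roles, also chosen after their values were seen, were Ninj1, which drives membrane rupture of dying cells (0.49), Ccr1, a chemokine receptor (0.41), Notch2 (0.39), Xbp1, a factor of the unfolded protein response (0.49) and Tnfaip2 (0.73). Ptch1, the Hedgehog receptor, fell by 1.18 (SE 0.32, adjusted p = 0.0191), and Lpin1 fell by 1.11 without overlap (10.7 to 26.3 in MI and 31.1 to 45.2 in sham).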
